A study of Vitis vinifera with 2 samples.

Results

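Long clusters of 24 nt siRNA in embryogenic callus (EC) of grapevine were examined here. A cluster is a stretch of the genome to which small RNA reads mapped close together, and its DicerCall is the predominant length of those reads. The clusters were chosen by 2 measured values in the EC list, a DicerCall of 24 and a length of 500 bp or more, and 1942 clusters met both conditions. They were 1.11% of the 175575 EC clusters of 24 nt and were found among 317444 clusters in all, 227847 of them in EC and 89597 in leaf. EC was the proliferating embryogenic callus of Vitis vinifera cv. 'Chardonnay', a culture of dedifferentiated cells started from anthers and kept in the dark. The comparison tissue was young leaf from the same vines. Material from several dishes or leaves had been pooled, and there was 1 small RNA library for each tissue, made from 50 mg of tissue and from RNA fragments of 18 to 35 nt. No mutant and no treatment of the vines was described, but the callus had been kept on solid culture medium for months and the leaves had not. Tissue and culture conditions therefore cannot be told apart here. With 1 library per tissue, differences between EC and leaf had no replicate check, and no test between the tissues was made. The lists gave no number of reads for any cluster, so the depth behind each cluster was unknown. The tissue labels could not be checked against marker genes, because the lists hold no gene expression.

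In plants, siRNAs of 24 nt are the guides of canonical RNA-directed DNA methylation. In Arabidopsis, RNA polymerase IV transcribes silent repeats, RDR2 makes the transcript double-stranded, DCL3 dices it into 24 nt duplexes, and AGO4 carries the guide strand to nascent transcripts, where DRM2 methylates the DNA. Most such siRNAs come from transposable elements and other repeats, and since both strands of a double-stranded precursor can be diced, reads often map to both strands of a locus. siRNAs of 21 nt act mainly in post-transcriptional silencing. The question addressed by the comparison of EC with leaf was how the siRNA complement that guides silencing of transposable elements differs in dedifferentiated cells. Genes and transposable elements at these positions were not analysed here.

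The long clusters together spanned 1.38 Mb, which was 6.60% of the 20.9 Mb covered by EC 24 nt clusters. Their lengths had a median of 615 bp and a maximum of 2984 bp, and most lay near the minimum. Lengths of 600 bp or more were found in 1066 clusters, 1000 bp or more in 201, 1500 bp or more in 60 and 2000 bp or more in 14. Length and size class chose the clusters, so these values describe the choice. There was no break in the lengths at the minimum, since 125 clusters lay less than 10 bp above it and 116 EC 24 nt clusters at most 10 bp below it. Leaf clusters covered 11.3% of the length of those just inside the minimum and 6.96% of those just outside it. Both values rest on few clusters. Over broader classes the values were 11.1% at 500 to under 600 bp and 10.5% at 400 to under 500 bp.

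A strand was rarely assigned to the long clusters. ShortStack left 1787 of them without a strand, 92.0% (95% exact binomial interval 90.7 to 93.2%), where the same was true of 55.2% of all EC 24 nt clusters. Of the remaining 155 clusters, 75 were assigned to the plus strand and 80 to the minus strand. The share without a strand was higher in longer length classes up to the class of 1000 bp or more. It was 94.5% (90.4 to 97.2%) at 1000 bp or more, 90.4% (88.3 to 92.3%) at 500 to under 600 bp, 86.2% (84.6 to 87.7%) at 400 to under 500 bp and 14.5% (14.1 to 15.0%) at 30 bp or less. Among the longest it was no higher, at 91.7% of the 60 clusters of 1500 bp or more and 92.9% of the 14 of 2000 bp or more. Reads per strand were not given, and a cluster of few reads falls on a single strand more readily, so strand and depth cannot be told apart here. These intervals, like all those below, cover only the counting of clusters. Neighbouring clusters are not independent of each other.

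The 155 clusters with a strand were slightly shorter, with a median of 590 bp against 618 bp in those without. More of them met a leaf cluster, 46.5% (38.4 to 54.6%) against 36.1% (33.9 to 38.4%), and leaf clusters covered 21.9% of their length against 9.94%. Where a stranded long cluster and a stranded leaf cluster overlapped, 66 of 72 pairs lay on the same strand and 6 on opposite strands. That share, 91.7% (82.7 to 96.9%), was close to the 89.5% (88.8 to 90.2%) over all EC 24 nt clusters. The strand was also shared with adjoining EC clusters. Among the adjoining clusters that had a strand, 110 of 157 were on the strand of the long cluster, 70.1% (62.2 to 77.1%), against 52.9% (52.6 to 53.3%) over all EC 24 nt clusters. Of 9 pairs of neighbouring long clusters within 5 kb that both had a strand, all 9 were on the same strand. No such count is given for shorter clusters, and these pairs can overlap with the adjoining clusters counted before.

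The long clusters were crowded by other EC clusters. The gap to the adjoining EC cluster was 198 bp in the median over both sides, with quartiles of 108 and 451.25 bp. The median was 275 bp for EC 24 nt clusters of 400 to under 500 bp and 575 bp over all EC 24 nt clusters. An EC cluster lay within 100 bp on at least 1 side of 707 long clusters, 36.4% (34.3 to 38.6%), whereas 16.1% of all EC 24 nt clusters and 27.8% of those of 400 to under 500 bp had such a neighbour. The smallest gap between any 2 EC clusters was 66 bp. Of the 10 longest clusters, 7 had an EC cluster within 100 bp on at least 1 side. A gap of over 5 kb was found on 2.75% of sides, against 4.12% at 400 to under 500 bp and 9.92% over all EC 24 nt clusters.

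The neighbours were themselves mostly 24 nt clusters. Of 3884 adjoining EC clusters, 87.1% (86.0 to 88.2%) were of 24 nt, 7.96% (7.12 to 8.85%) had no size call and 1.18% (0.87 to 1.58%) were of 21 nt. Over all EC 24 nt clusters the adjoining clusters were of 24 nt in 78.5% of cases, without a size call in 13.2% and of 21 nt in 1.68%. Clusters of 400 to under 500 bp were nearer to the long ones, with 84.5% (83.3 to 85.6%), 9.84% (8.94 to 10.8%) and 1.28% (0.960 to 1.68%). The median length of the neighbours was 148 bp beside long clusters, 115 bp beside those of 400 to under 500 bp and 90 bp beside EC 24 nt clusters in general. In the 5 kb on either side EC clusters covered 25.6% of the sequence, against 19.2% for those of 400 to under 500 bp and 10.4% for all EC 24 nt clusters. Beside clusters of 1000 bp or more this was 36.7%. A neighbouring cluster is counted by the same library that gave the long cluster, so these values describe the surroundings and are no independent evidence.

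Long clusters also lay near each other. Another long cluster was found within 5 kb of 929 of them, 47.8% (45.6 to 50.1%), and within 500 bp of 435. For the 2027 EC 24 nt clusters of 400 to under 500 bp, 25.3% (23.4 to 27.2%) had another of that length within 5 kb. That count left out longer partners, so the 2 shares are not alike in definition. With a minimum of 400 bp and no upper limit the share was 51.0%. When neighbours within 5 kb were joined, the 1942 clusters fell into 1344 groups, of which 1013 held a single cluster, 181 held 2, 82 held 3 and 68 held 4 or more. Members of groups were longer than single clusters, with medians of 651 and 592 bp.

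The 5 groups with most long clusters held 7 to 9 each. On chromosome 10 (start 7262408, end 7278284), 9 long clusters made up 7.82 kb of a span of 15.9 kb, none had a strand, and 4 of them met a leaf cluster. On chromosome 1 (start 10991159, end 11001597), EC clusters covered 85.2% of 10.4 kb, and 3 of the 9 long clusters met a leaf cluster. Leaf clusters covered 4.80% and 4.37% of these spans. The densest group lay on chromosome 16 (start 5462730, end 5472945), where 7 long clusters of 513 to 1916 bp filled 86.6% of the span and leaf clusters covered 3.76% of it. Of those 7 clusters, 5 had no leaf cluster.

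A further group on chromosome 16 (start 7402955, end 7411296) held 7 long clusters over 8342 bp. They measured 500, 842, 525, 1049, 2333, 659 and 611 bp in order along the chromosome, and the first 5 were separated by gaps of 75 to 81 bp only. No leaf cluster was found in the whole span. In another group on chromosome 10 (start 7375506, end 7386791), 6 of the 7 long clusters met a leaf cluster, and leaf clusters covered 15.7% of their summed length. The map of the 5 groups shows runs of EC clusters with small gaps above a few short leaf clusters.

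**Figure D1:**
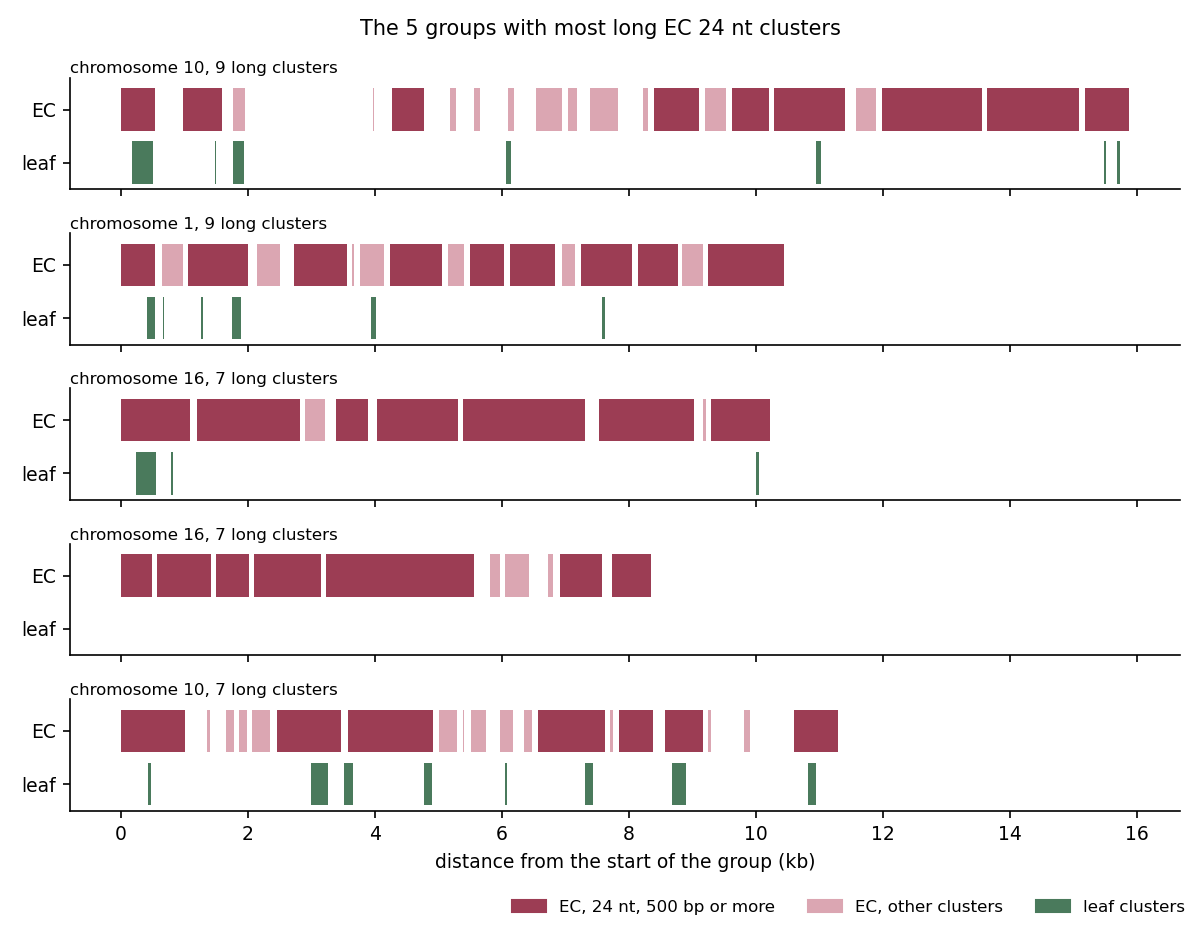
Maps of the 5 groups with most long EC 24 nt clusters, drawn to a common scale as distance from the start of each group in kb. Dark bars are long EC 24 nt clusters, pale bars the other EC clusters, and bars in the lower row leaf clusters; the fourth group has none in leaf.

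The comparison with leaf was made by overlap of at least 1 bp. Leaf clusters overlapped 717 of the 1942 long clusters, 36.9% (34.8 to 39.1%), and 16.6% of all EC 24 nt clusters. A longer stretch can meet more leaf clusters, and the share was higher in longer classes. It was 49.8% (42.6 to 56.9%) at 1000 bp or more, 40.4% (34.6 to 46.4%) at 750 to under 1000 bp, 34.4% (31.2 to 37.6%) at 500 to under 600 bp and 32.2% (30.2 to 34.3%) at 400 to under 500 bp. At 100 to under 200 bp it was 17.8% (17.5 to 18.1%).

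The share of the length that leaf clusters covered did not follow length in this way. Leaf clusters covered 10.9% of the summed length of the long clusters (149.5 of 1378 kb) and 9.67% of that of EC 24 nt clusters under 500 bp. By length class the value was 10.4% at 1000 bp or more, 12.1% at 750 to under 1000 bp, 10.05% at 600 to under 750 bp, 11.1% at 500 to under 600 bp and 10.5% at 400 to under 500 bp, and among shorter clusters it stayed between 9.03% and 11.0%. No interval is given for these values, since bases within a cluster are not independent. Per kb of EC cluster there were 0.716 leaf clusters over long clusters and 1.46 over those under 500 bp. An overlap of 1 bp counts a whole leaf cluster, so this number is raised in short classes by the counting itself. It was 4.49 at 30 bp or less, 0.879 at 400 to under 500 bp and 0.592 at 1000 bp or more.

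**Figure D2:**
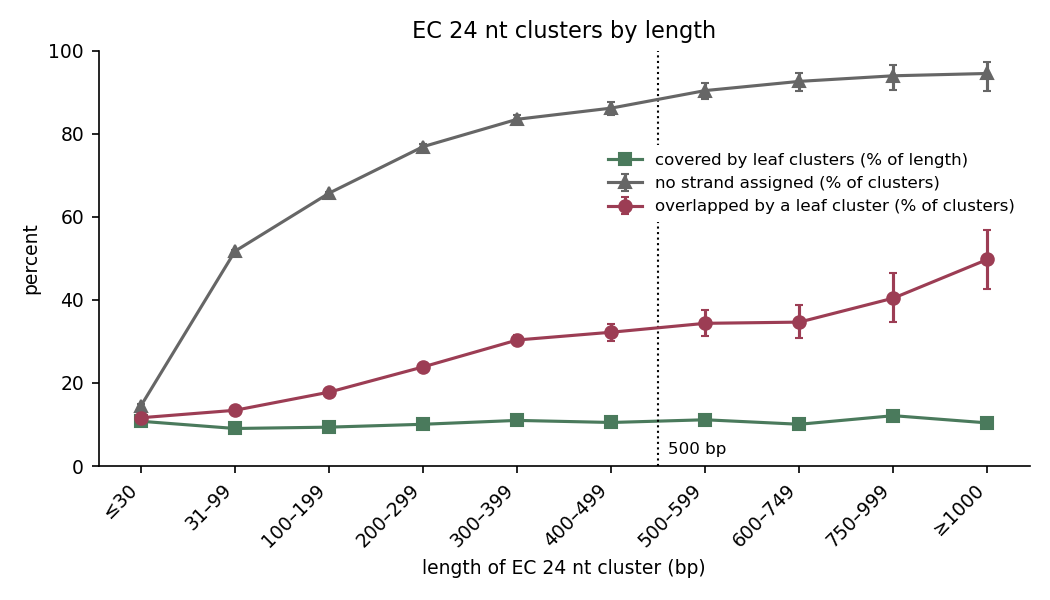
EC 24 nt clusters by length class (bp), with the percentage without an assigned strand, the percentage overlapped by a leaf cluster (bars are 95% exact binomial intervals) and the percentage of their length covered by leaf clusters. The first 2 are higher in longer classes, reaching 94.5% and 49.8% at 1000 bp or more, whereas the covered share lies between 9.03% and 12.1% throughout.

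Coverage by leaf clusters was very uneven among the long clusters. No leaf cluster was found over 1225 of them, 63.1% (60.9 to 65.2%). That share was 83.4% over all EC 24 nt clusters and 67.8% (65.7 to 69.8%) at 400 to under 500 bp. A further 207 long clusters were covered to at most 10%. At the other end 146 were covered to more than 50%, 7.52% (6.38 to 8.78%), where 8.99% of all EC 24 nt clusters were. Of these, 26 were covered over their whole length. The 146 clusters held 54.8% of all the length covered by leaf clusters. Among the 717 that met a leaf cluster the covered share had a median of 18.8% (quartiles 8.89 and 40.7%). Most of the 717 met a single leaf cluster (497), while 172 met 2, 43 met 3 and 5 met 4 or more.

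**Figure D3:**
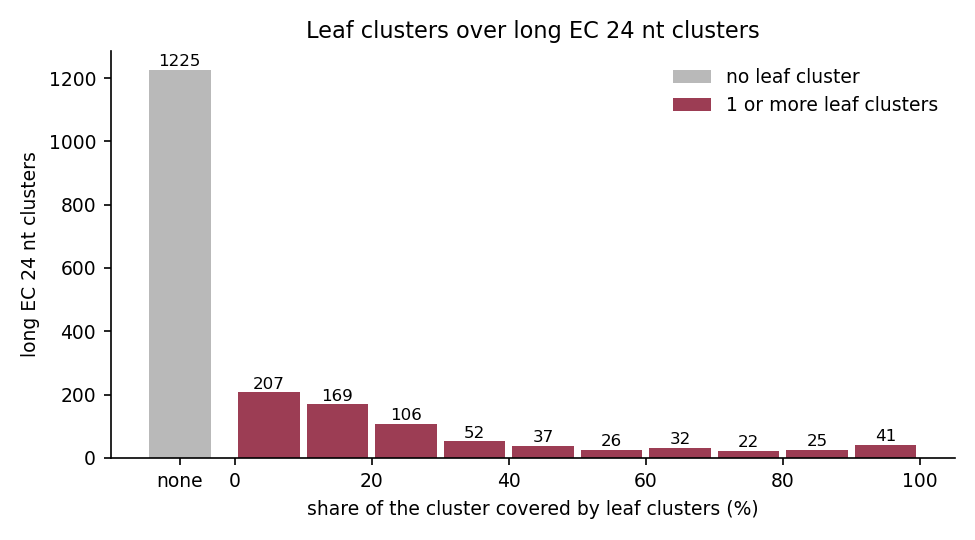
Number of long EC 24 nt clusters (vertical axis) by the share of their length covered by leaf clusters (horizontal axis, percent, in steps of 10), with those that met no leaf cluster at the left. The 1225 without a leaf cluster outnumber all others, and 41 are covered to more than 90%.

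The leaf clusters over them were mostly shorter than 500 bp, though longer in the median than leaf clusters in general. The 986 leaf clusters involved were 106 bp long in the median, with quartiles of 50 and 184 bp. Those over all EC 24 nt clusters had a median of 81 bp, and all leaf clusters had a median of 66 bp. Of the 992 overlaps, 764 lay wholly inside the long cluster, which the choice of clusters of at least 500 bp favours. Along the long clusters, divided into 5 equal stretches from start to end, leaf clusters covered 10.3%, 11.0%, 10.7%, 11.7% and 10.5%. Leaf clusters of 24 nt and at least 500 bp overlapped 66 of the long clusters, 3.40%. Seen from leaf, 63 of the 374 leaf 24 nt clusters of that length met a long EC 24 nt cluster and 315 met an EC 24 nt cluster of any length. EC clusters of all kinds covered 46.2% of the length of these leaf clusters, and long EC 24 nt clusters alone covered 16.4% of that same length.

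Leaf clusters over the long clusters were mainly of the same size class. Of the 986, 69.9% (66.9 to 72.7%) were of 24 nt, 18.0% (15.6 to 20.5%) had no size call and 4.56% (3.35 to 6.06%) were of 21 nt. Leaf clusters over all EC 24 nt clusters were of 24 nt in 72.7% of cases, without a call in 17.0% and of 21 nt in 2.71%. In the leaf library as a whole these shares were 59.8%, 23.9% and 6.82%. By length, 24 nt clusters made up 81.3% and 21 nt clusters 4.01% of what leaf clusters covered. All leaf clusters were of 24 nt over 457 of the 717 long clusters that had any, 63.7% (60.1 to 67.3%). The share over all EC 24 nt clusters with a leaf cluster was 72.3%. A longer cluster can meet more leaf clusters, which makes a single class among them less likely. These shares therefore cannot show whether long clusters differ in the size class of their leaf clusters. Leaf clusters of more than 1 class were found over 104 of the 717. No such share is given for all EC 24 nt clusters, and meeting more leaf clusters raises it.

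A change of size class from 24 nt in EC to 21 nt in leaf was infrequent. Of the 717 clusters, 37 met at least 1 leaf cluster of 21 nt, 5.16% (3.66 to 7.04%). This share too has no counterpart over all EC 24 nt clusters here, and meeting more leaf clusters raises it. Over 18 of the 37 every leaf cluster was of 21 nt, which was 2.51% (1.49 to 3.94%) of the 717. Over all EC 24 nt clusters with a leaf cluster the share was also 2.51%, with the limit given above for a single class. The longest of the 18 lay on chromosome 19 (start 5716972, end 5719663) and measured 2692 bp. It had no strand, and its 5 leaf clusters of 213, 557, 87, 494 and 623 bp had none either. Together they covered 70.7% of it. The next were much less covered in leaf. They measured 1204 bp on chromosome 8 (start 9095388, end 9096591), 1145 bp on chromosome 19 (start 20329617, end 20330761), 875 bp on chromosome 14 (start 20554433, end 20555307) and 732 bp on chromosome 2 (start 14340051, end 14340782), and leaf clusters covered 2.16%, 2.79%, 26.7% and 35.0% of them. On the first 2 of these the single leaf cluster was 26 and 32 bp long. For comparison, the 69 EC clusters of 21 nt and at least 500 bp were covered to 57.3% by leaf clusters, and 75.9% of the leaf clusters over them were of 21 nt.

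The 10 longest clusters showed the range of states in leaf. The longest, of 2984 bp on chromosome 11 (start 4452518, end 4455501), met leaf clusters of 100 bp (24 nt) and 24 bp (23 nt). Leaf clusters covered 9.74% of a cluster of 2330 bp on chromosome 8 (start 20519536, end 20521865), 8.80% and 1.12% of clusters of 2239 and 2236 bp on chromosome 13 (21394039 to 21396277 and 15296903 to 15299138), and 6.60% of one of 2135 bp on chromosome 5 (start 21490441, end 21492575). No leaf cluster was found over 3 of the 10, namely the 2333 bp cluster on chromosome 16 in the group described above, another of 2142 bp on chromosome 16 (start 3958957, end 3961098) and one of 2143 bp on chromosome 5 (start 15232212, end 15234354). The nearest leaf cluster was 3286, 3710 and 152 bp away. Only 2 of the 10 were covered to more than 10%, that on chromosome 19 with its 21 nt leaf clusters (70.7%) and one of 2289 bp on chromosome 4 (start 3618881, end 3621169). The cluster on chromosome 4 was assigned to the minus strand in EC, and a single leaf cluster of 2268 bp, also of 24 nt and on the minus strand, covered 2266 bp of it.

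The clusters most fully shared lay inside longer leaf clusters. The 5 longest with complete coverage measured 1389 bp on chromosome 7 (start 19294962, end 19296350), 1143 bp on chromosome 8 (start 19628630, end 19629772), 1013 bp on chromosome 4 (start 19022918, end 19023930), 935 bp on chromosome 15 (start 13638569, end 13639503) and 876 bp on chromosome 18 (start 2586312, end 2587187). Each lay within a single leaf cluster of 24 nt, of 1938, 1825, 1314, 1067 and 1112 bp. These 5 were chosen for complete coverage, so leaf clusters at least as long as the EC cluster follow from the choice. Leaf clusters covered 31.1 to 58.5% of the 1 kb on each side, which the choice also favours.

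Of the 5 long clusters with most leaf clusters, that on chromosome 19 with 5 of 21 nt is described above. The cluster of 1459 bp on chromosome 14 (start 23405543, end 23407001) met 3 leaf clusters of 24 nt and 2 without a call, and was covered to 62.6%. That of 1940 bp on chromosome 7 (start 4718051, end 4719990) met 3 of 24 nt and 1 of 23 nt and was covered to 69.9%. Those of 951 bp on chromosome 17 (start 4634833, end 4635783) and 929 bp on chromosome 14 (start 4513404, end 4514332) met 4 each, and were covered to 34.8% and 24.5%. On the last, the 4 leaf clusters of 24 nt alternated between plus and minus strands, whereas the EC cluster had no strand.

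The sequence beside the long clusters allowed leaf coverage to be compared within the same place on the chromosome. Leaf clusters covered 10.9% inside the long clusters and 4.36% of the 1 kb on each side, and 3.73% at 1 to 2 kb, 2.93% at 2 to 5 kb and 2.22% at 5 to 10 kb. EC 24 nt clusters of 100 to under 500 bp had 9.81% inside and 2.98% in the 1 kb on each side. EC clusters themselves covered 33.9% of the 1 kb beside long clusters and 13.7% beside those of 100 to under 500 bp, so the flanks of long clusters hold more EC sequence. Per cluster, coverage was higher inside than in the flanks for 637 long clusters and lower for 558, and 747 had no leaf cluster in either. Of the 558, 478 had no leaf cluster inside but had one within 1 kb. The flanks together are mostly longer than the cluster between them, so they have more room to meet a leaf cluster. No such counts are given for other EC 24 nt clusters.

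**Figure D4:**
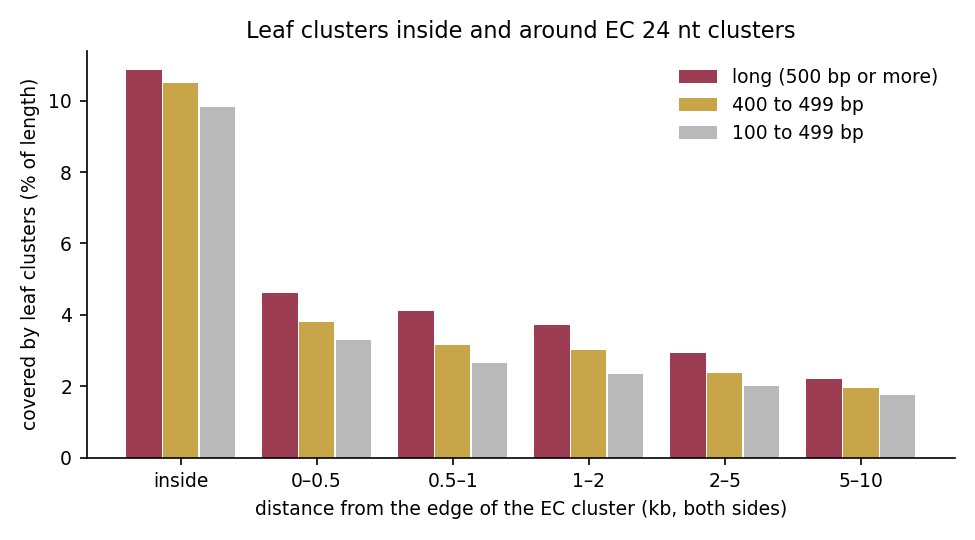
Percentage of sequence covered by leaf clusters (vertical axis) inside EC 24 nt clusters and at increasing distance from their edges (horizontal axis, kb), for long clusters and for those of 400 to under 500 bp and 100 to under 500 bp. For long clusters it is 10.9% inside and 2.22% at 5 to 10 kb, and at every distance it exceeds that of both shorter sets.

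Of the 1225 long clusters without a leaf cluster, 478, or 39.0%, had one within 1 kb, and the median distance to the nearest was 1504 bp. No distances or flank values are given for shorter EC clusters without a leaf cluster. Whether those of the long clusters are unusual was therefore not tested. Leaf clusters covered 2.32% of the 1 kb on each side of the 1225. The share was 2.33% at 1 to 2 kb and 2.18% at 2 to 5 kb. For 75 of the 1225 there was none within 10 kb. The longest of these measured 1261 bp on chromosome 5 (start 21417336, end 21418596), 1099 bp on chromosome 10 (start 15373379, end 15374477), 1087 bp on chromosome 15 (start 7617283, end 7618369), 914 bp on chromosome 4 (start 10104003, end 10104916) and 901 bp on the unplaced sequence chrUn (start 38574795, end 38575695). None of the 5 had a strand. Their nearest EC clusters were 75, 93, 1100, 81 and 1877 bp away. Among neighbouring long clusters within 5 kb of each other, both met a leaf cluster in 94 of 598 pairs, neither did in 282 and only 1 did in 222. Members of groups and single clusters met a leaf cluster in 35.5% (32.4 to 38.7%) and 38.2% (35.2 to 41.3%) of cases, with overlapping intervals, and were covered to 9.10% and 12.8% of their length.

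Long clusters were found on all 19 chromosomes and on 10 of the 14 other sequences. The chromosomes held 1732 and the other sequences 210, or 10.8%, a share like the 10.7% of all EC 24 nt clusters. Their proportion among EC 24 nt clusters differed between chromosomes, with a mean of 1.09% and an SD of 0.32 over the 19. It was lowest on chromosomes 6 (25 clusters, 0.410%, interval 0.265 to 0.604%), 7 (35, 0.542%, 0.378 to 0.753%) and 9 (39, 0.551%, 0.392 to 0.752%). The next lowest, chromosome 12 (72, 0.933%, 0.731 to 1.17%), overlapped chromosomes 7 and 9 in its interval but not chromosome 6. The highest were chromosome 15 (114, 1.57%, 1.29 to 1.88%) and chromosome 2 (120, 1.56%, 1.30 to 1.87%), whose intervals overlapped those of chromosomes as low as chromosome 3 (80, 1.09%, 0.867 to 1.36%). Per Mb of sequence the values ran from 1.16 on chromosome 6 to 6.78 on chromosome 10, with a median of 4.09.

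Along the chromosomes the long clusters followed other EC 24 nt clusters in part. With each chromosome divided into 5 equal parts from start to end, the parts held 240, 366, 346, 357 and 423 long clusters. The middle part held 19.98% (18.1 to 21.9%) of them and 22.5% of all EC 24 nt clusters, and the last part 24.4% (22.4 to 26.5%) and 19.97%. Leaf clusters of all sizes were distributed with 15.6% in the middle part and 22.3% in the last. The excess in the last part was found on 11 of 19 chromosomes and was largest on chromosomes 18 (45.2% of its long clusters against 27.6% of its EC 24 nt clusters) and 13 (37.1% against 20.1%), whereas chromosome 17 had 8.22% against 25.8%.

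In windows of 1 Mb the number of long clusters varied widely. The median of 420 complete windows held 3 (quartiles 1 and 5), 60 windows held none and 50 held 10 or more. The richest were chromosome 2 at 14 to 15 Mb with 25, chromosome 13 at 7 to 8 Mb with 23, chromosome 10 at 7 to 8 Mb with 22, chromosome 1 at 10 to 11 Mb with 19 and chromosome 13 at 21 to 22 Mb with 18. Both groups of chromosome 10 described above lay in the window of that chromosome, and the group of chromosome 1 began in the window at 10 to 11 Mb and ended beyond it. Across the 420 windows the number of long clusters was related to that of shorter EC 24 nt clusters with r = 0.56 and rho = 0.53, and to that of leaf clusters with r = 0.13 and rho = 0.10. Windows are not independent, the first relation is within a single library, and these values are descriptions only.

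Leaf coverage of the long clusters differed along the chromosomes. In the 5 parts of the chromosomes it was 19.6%, 11.5%, 6.07%, 7.23% and 11.3%, and over shorter EC 24 nt clusters in the same parts 14.7%, 11.2%, 6.88%, 7.66% and 10.5%. Of the long clusters in the 2 outer parts, 42.4% (38.6 to 46.2%) met a leaf cluster, and of those in the inner 3 parts 32.7% (29.9 to 35.6%). The covered share was 14.3% in the outer and 8.38% in the inner parts, and it was higher in the outer parts on 14 of 19 chromosomes. Leaf clusters in general were also more frequent there, with 22.6% of them in the first part.

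By chromosome the covered share had a median of 10.4% and ran from 3.77% on chromosome 9 to 31.6% on chromosome 7, against 7.47 to 12.9% for shorter EC 24 nt clusters. It was higher in the long clusters than in the shorter ones on 10 of the 19 chromosomes, so no direction held across them. The value of chromosome 7 came from 35 clusters, and without the 2 that contributed most it was 24.02%. Chromosome 8 was next with 23.3%, and 55 of its 97 long clusters, 56.7%, met a leaf cluster. There the outer parts were covered to 39.97% and the inner parts to 7.64%.

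**Figure D5:**
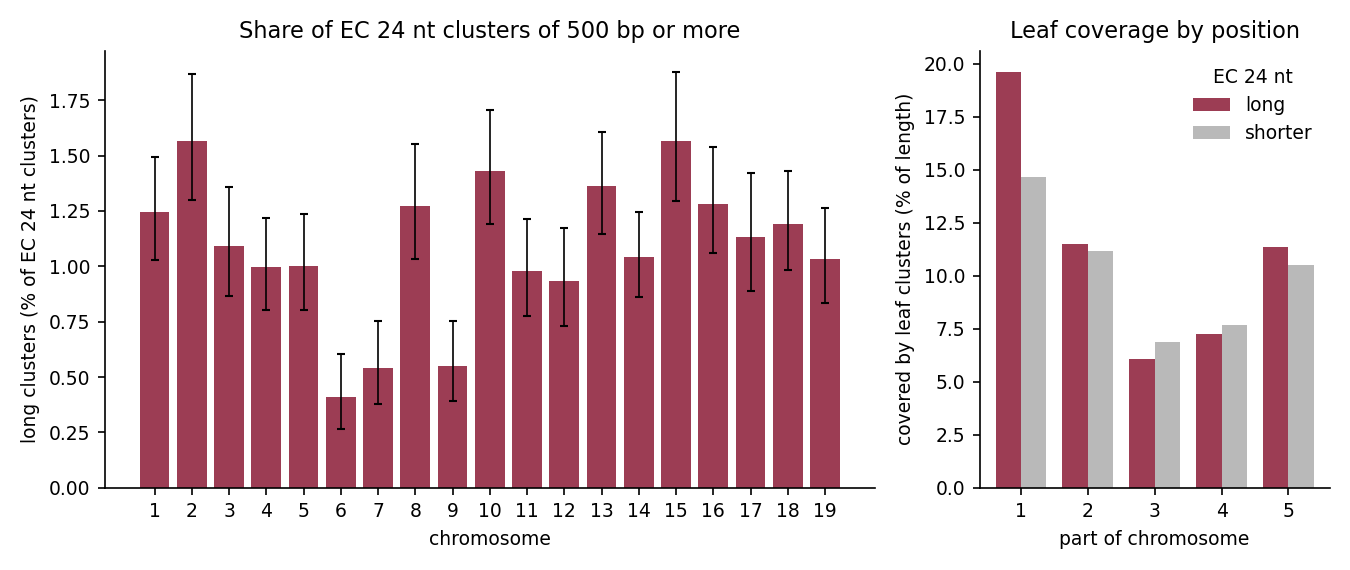
Left, long clusters as a percentage of EC 24 nt clusters on chromosomes 1 to 19, with 95% exact binomial intervals, lowest on chromosomes 6, 7 and 9 (0.410 to 0.551%). Right, percentage of the length of long and of shorter EC 24 nt clusters covered by leaf clusters in 5 equal parts of the chromosomes from start to end, lowest in the middle part (6.07% and 6.88%).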

How the data were processed

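Small RNA had been sequenced from 1 EC and 1 leaf library. In the study's methods, the authors trimmed and size filtered reads in the UEA small RNA Workbench, removed tRNA and rRNA reads with PatMaN and then miRNA reads, and mapped the rest to the PN40024 12X genome with ShortStack, which places multi-mapping reads by the uniquely mapping reads nearby, joins reads into clusters and calls their size. Multi-mapping and the joining distance, not given in the sources used here, both affect cluster length. The deposited lists hold start, end, strand and DicerCall, and no read counts (0 scores filled), so library depth was not corrected for. The study reported fewer genome-mapped reads for the leaf library than for the EC library after miRNA removal. The effect of this on the number and length of leaf clusters was not tested.

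Overlaps (at least 1 bp), covered lengths and gaps were computed with Python 3.11.15, pandas 2.3.3, numpy 2.4.6 and scipy 1.17.1, and the overlap functions were tested on simulated data. The last cluster end in the EC or leaf list stood for the length of a chromosome. Intervals are 95% Clopper-Pearson. Named regions were the 10 longest clusters, 5 with the highest leaf coverage, 5 with most leaf clusters, the 5 longest with leaf clusters all of 21 nt, the 5 longest with no leaf cluster within 10 kb and the 5 largest groups. Size class, minimum length and lists were chosen with earlier results of these data known. Several summaries (strand and leaf state of neighbours, outer and inner parts, gaps of at most 100 bp) were added after seeing the data. The gene table at hand was of another build, so genes, repeats and sequences were not used here.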

Additional observations from a re-analysis of the deposited data

How the results depend on the processing

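For the shares of clusters, 18 of 35 alternative values lay within the interval of the main value. The share of long clusters overlapped by a leaf cluster was 34.5%, 44.3% and 49.8% with a length minimum of 400, 750 and 1000 bp (3969, 483 and 201 clusters). It was 33.2% with leaf clusters of more than 30 bp only, 32.0% with leaf clusters that had a DicerCall, and 25.3% when at least 10% of the EC cluster had to be overlapped. The covered share has no usable interval, so its 8 alternative values are given without a verdict. Against 10.9% as reported, it was 10.7%, 11.2% and 10.4% with the 3 length minimums, 10.7% on chromosomes 1 to 19, and 10.6% and 9.62% with the 2 restricted leaf lists. Without chromosomes 7 and 8 it was 9.75%. That run was added after seeing the data and left out the 2 chromosomes of highest covered share, so a lower value was bound to result. The share of leaf clusters of 24 nt was 85.2% when those without a DicerCall were left out and 74.9% with the overlap of 10%. The share without a strand was 89.0%, 94.2% and 94.5% with the 3 minimums. The share with another long cluster within 5 kb was 51.0%, 40.8% and 39.3% with them, and 39.6% and 51.4% for distances of 2 and 10 kb. After seeing the data, EC 24 nt clusters at most 100 bp apart were also joined before the length rule, which gave 3572 clusters of 500 bp or more, 2279 of them made of several. Of these, 94.8% had no strand (joined clusters of unlike strand counted as such) and leaf clusters covered 9.49% of their length. The share in the middle part of the chromosomes stayed within its interval in all 4 alternatives run. The leaf coverage of the flanks was computed in 1 way only. No paired analysis was possible because neither tissue had a replicate library. Depth per cluster was unknown, so a locus without a leaf cluster may have had leaf reads too few to form one.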
